A study of Mus musculus with 18 samples.

Results

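Macrophages and monocytes were followed in mouse gastrocnemius, the large calf muscle, through 41 marker genes in 18 RNA-seq libraries. The members were the rows of the count table whose identifiers map to the symbols of a given list of resident, infiltrating, lipid-associated and general myeloid markers. All 41 were found among the 54532 genes of the table, and all 41 were among the 17833 genes with enough counts to be tested. The mice were female C57BL/6 animals labelled flox/flox, with an intact Zfp697 gene (flox), or as conditional knockouts of Zfp697 in skeletal muscle (mKO). Each genotype was studied as controls in conventional cages, after 10 days of hindlimb unloading, which takes body weight off the calf, and after 3 days of reloading that followed unloading. Each of the 6 groups held 3 libraries. The promoter that drives Cre, the age of the animals and whether each library is 1 animal are not given in the sources used here. If the libraries of a group share an animal, the p-values measure technical spread only.

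Macrophages clear dead fibres and debris from damaged muscle, and their signals steer satellite cells and fibroblasts during repair. Resting muscle holds resident macrophages that carry scavenger receptors such as CD163 and the mannose receptor. After injury, monocytes enter from blood, take up debris and turn from an inflammatory to a reparative state, in part through lipid-handling programmes. The RNA here comes from whole muscle, so fewer macrophages and less of a transcript per macrophage cannot be told apart in any value below.

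Levels are in CPM, counts relative to the TMM-scaled library size, and differences are log2 fold changes estimated by edgeR, each with its standard error (SE). Called means that the p, adjusted by Benjamini-Hochberg across the 17833 tested genes, was under 0.05. Total counts ran from 45069595 to 51592566 per library, and counts of members from 2 (Clec4n and Trem2, each in its lowest library) to 8258 (Lyz2). Zfp697 was at 0.984 to 1.6 CPM in flox control and 1.05 to 1.31 in mKO control, and at 2.33 to 2.79 in flox reloading and 1.47 to 1.95 in mKO reloading. No contrast between genotypes called it. The deleted part of the gene is not given in the sources used here, so the whole-gene count does not check the genotype labels. Exons of other genes cover 68.7% of the Itgam exon bases, 63.1% of Folr2 and 35.9% of Lilrb4a, and smaller stretches of Csf1r, Ncf1 and Fcgr2b. The file header shows no strand option, so the values of these genes are uncertain, as are those of Lyz2, Fcgr2b, Fcgr3 and Lilrb4a, which have close copies.

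The members largely moved together at reloading, and their promoters are shown here for that reason. Spi1, itself a member, encodes PU.1, a factor that myeloid cells need to form and that binds sequences built around GGAA. Promoter windows of 300 bases, from 250 before to 50 after the start site, were taken from RefSeq (GRCm38.p6) for 30 of the 41 members. The other 11 members, among them Csf1r and Cd14, were not searched. That does not mean that RefSeq lacks their windows, and the member shares below do not cover them. The letters AGGAAGT, searched on both strands as a common form of the PU.1 site, were in a window of 8 of these 30 genes (26.7%), namely Cd53, Ctss, Fcgr1, Folr2, Lyz2, Mrc1, Pld4 and Ptprc. Over all 27025 genes with a window, 2886 (10.7%) held the same letters. The E-box TCACGTG, a form bound by MiT/TFE factors of lysosomal genes, was in none of the 30 against 4.29% of all genes, and its variant TCATGTG was in 2, Ctss and Ms4a7, against 4.31%. A match is a description of letters and not a shown site. The first 5 windows below are of members that hold the PU.1 letters (capitals, also where they read as the reverse complement ACTTCCT) and the last 2, of Cd68 and Gpnmb, hold none of the motifs searched. Ctss also shows its E-box variant in capitals.
Mrc1 (chr2:14229164-14229463, plus strand): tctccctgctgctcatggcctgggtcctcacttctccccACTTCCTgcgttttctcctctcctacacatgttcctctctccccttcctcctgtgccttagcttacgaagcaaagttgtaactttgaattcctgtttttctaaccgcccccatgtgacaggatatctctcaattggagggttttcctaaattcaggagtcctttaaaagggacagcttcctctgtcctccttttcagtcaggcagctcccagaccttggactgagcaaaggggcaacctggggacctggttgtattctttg
Folr2 (chr7:101857141-101857440, minus strand): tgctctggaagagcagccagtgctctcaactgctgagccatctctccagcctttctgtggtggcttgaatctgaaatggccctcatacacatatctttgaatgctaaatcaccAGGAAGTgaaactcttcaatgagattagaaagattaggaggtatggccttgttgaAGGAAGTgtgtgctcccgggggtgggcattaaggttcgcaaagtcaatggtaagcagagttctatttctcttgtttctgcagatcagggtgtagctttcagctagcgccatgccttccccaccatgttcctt
Lyz2 (chr10:117282223-117282522, minus strand): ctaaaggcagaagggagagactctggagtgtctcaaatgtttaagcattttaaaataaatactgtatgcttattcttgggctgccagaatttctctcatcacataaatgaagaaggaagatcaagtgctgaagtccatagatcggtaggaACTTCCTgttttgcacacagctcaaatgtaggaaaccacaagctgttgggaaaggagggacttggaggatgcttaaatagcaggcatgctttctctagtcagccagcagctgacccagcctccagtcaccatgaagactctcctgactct
Fcgr1 (chr3:96293920-96294219, minus strand): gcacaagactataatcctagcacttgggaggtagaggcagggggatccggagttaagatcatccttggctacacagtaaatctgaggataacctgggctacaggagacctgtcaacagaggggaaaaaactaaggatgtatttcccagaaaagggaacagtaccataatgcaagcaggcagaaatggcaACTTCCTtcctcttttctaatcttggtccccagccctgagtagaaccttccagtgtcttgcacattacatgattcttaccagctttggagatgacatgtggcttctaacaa
Ctss (chr3:95526536-95526835, plus strand): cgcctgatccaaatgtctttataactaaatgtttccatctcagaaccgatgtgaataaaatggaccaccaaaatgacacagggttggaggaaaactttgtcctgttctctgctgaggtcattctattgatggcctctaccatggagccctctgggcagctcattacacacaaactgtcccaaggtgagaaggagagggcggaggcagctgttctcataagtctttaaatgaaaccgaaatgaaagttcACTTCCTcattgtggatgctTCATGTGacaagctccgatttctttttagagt
Cd68 (chr11:69666121-69666420, minus strand): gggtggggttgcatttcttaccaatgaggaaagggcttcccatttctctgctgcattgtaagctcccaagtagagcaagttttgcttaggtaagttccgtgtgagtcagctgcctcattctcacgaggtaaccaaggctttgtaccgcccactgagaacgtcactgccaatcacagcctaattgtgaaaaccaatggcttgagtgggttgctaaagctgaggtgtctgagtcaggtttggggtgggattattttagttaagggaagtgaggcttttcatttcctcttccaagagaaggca
Gpnmb (chr6:49036268-49036567, plus strand): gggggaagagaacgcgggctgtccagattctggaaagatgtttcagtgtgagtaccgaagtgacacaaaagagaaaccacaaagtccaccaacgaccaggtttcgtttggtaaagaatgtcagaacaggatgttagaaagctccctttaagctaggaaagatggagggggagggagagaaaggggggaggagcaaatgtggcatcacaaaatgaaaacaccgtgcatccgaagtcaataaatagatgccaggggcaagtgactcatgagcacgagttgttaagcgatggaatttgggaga
The PU.1 letters began 2 bases before the start site in Ctss, 61 in Fcgr1, 100 in Lyz2 and 211 in Mrc1, and at 137 and 82 before it in Folr2. Against unloading, all 8 genes with the letters rose in flox reloading. Of the 22 without them 16 rose, 1 fell and 5 did not pass. Over all tested genes 17% rose and 14.9% fell. Calls were not counted over all genes with the letters, so these counts describe the members only.

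Reads of all 41 markers were counted in resting flox muscle, though only 2, 6 and 12 for Clec4n and 20, 32 and 12 for Trem2. Per 1000 bases of exon, the highest mean levels in flox control were those of Lyz2 at 42.2 ± 1.62 CPM per kb (SD, n = 3), Axl at 13.8 ± 1.38 and the resident-macrophage gene Cbr2 at 12.2 ± 0.341. The lowest were those of Trem2 at 0.0941 ± 0.044, Clec4n at 0.104 ± 0.0808 and Itgax at 0.167 ± 0.0161 CPM per kb. Summed over all members, the level was 132 ± 0.912 CPM per kb in flox control, 132 ± 12.7 in flox unloading and 285 ± 50.9 in flox reloading. In mKO muscle the same sum was 133 ± 23.2, 109 ± 18.2 and 139.7 ± 22.3 CPM per kb. Lyz2 alone, a lysozyme gene that neutrophils also use, made up the largest single share of these sums. The summed CPM of 8 neutrophil markers, of which 4 passed the low-count filter, was 0.612 to 1.43 in flox control, 0.786 to 10.4 in flox unloading and 1.45 to 2.87 in flox reloading. In mKO it was 0.558 to 1.44, 1.38 to 4.32 and 0.868 to 1.23, so the highest library of each genotype was in unloading. In flox reloading 5 T cell genes summed to 0.816 to 1.42 CPM, 4 B cell genes to 0.53 to 1.04 and 4 NK cell genes to 0.122 to 0.296.

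**Figure D1:**
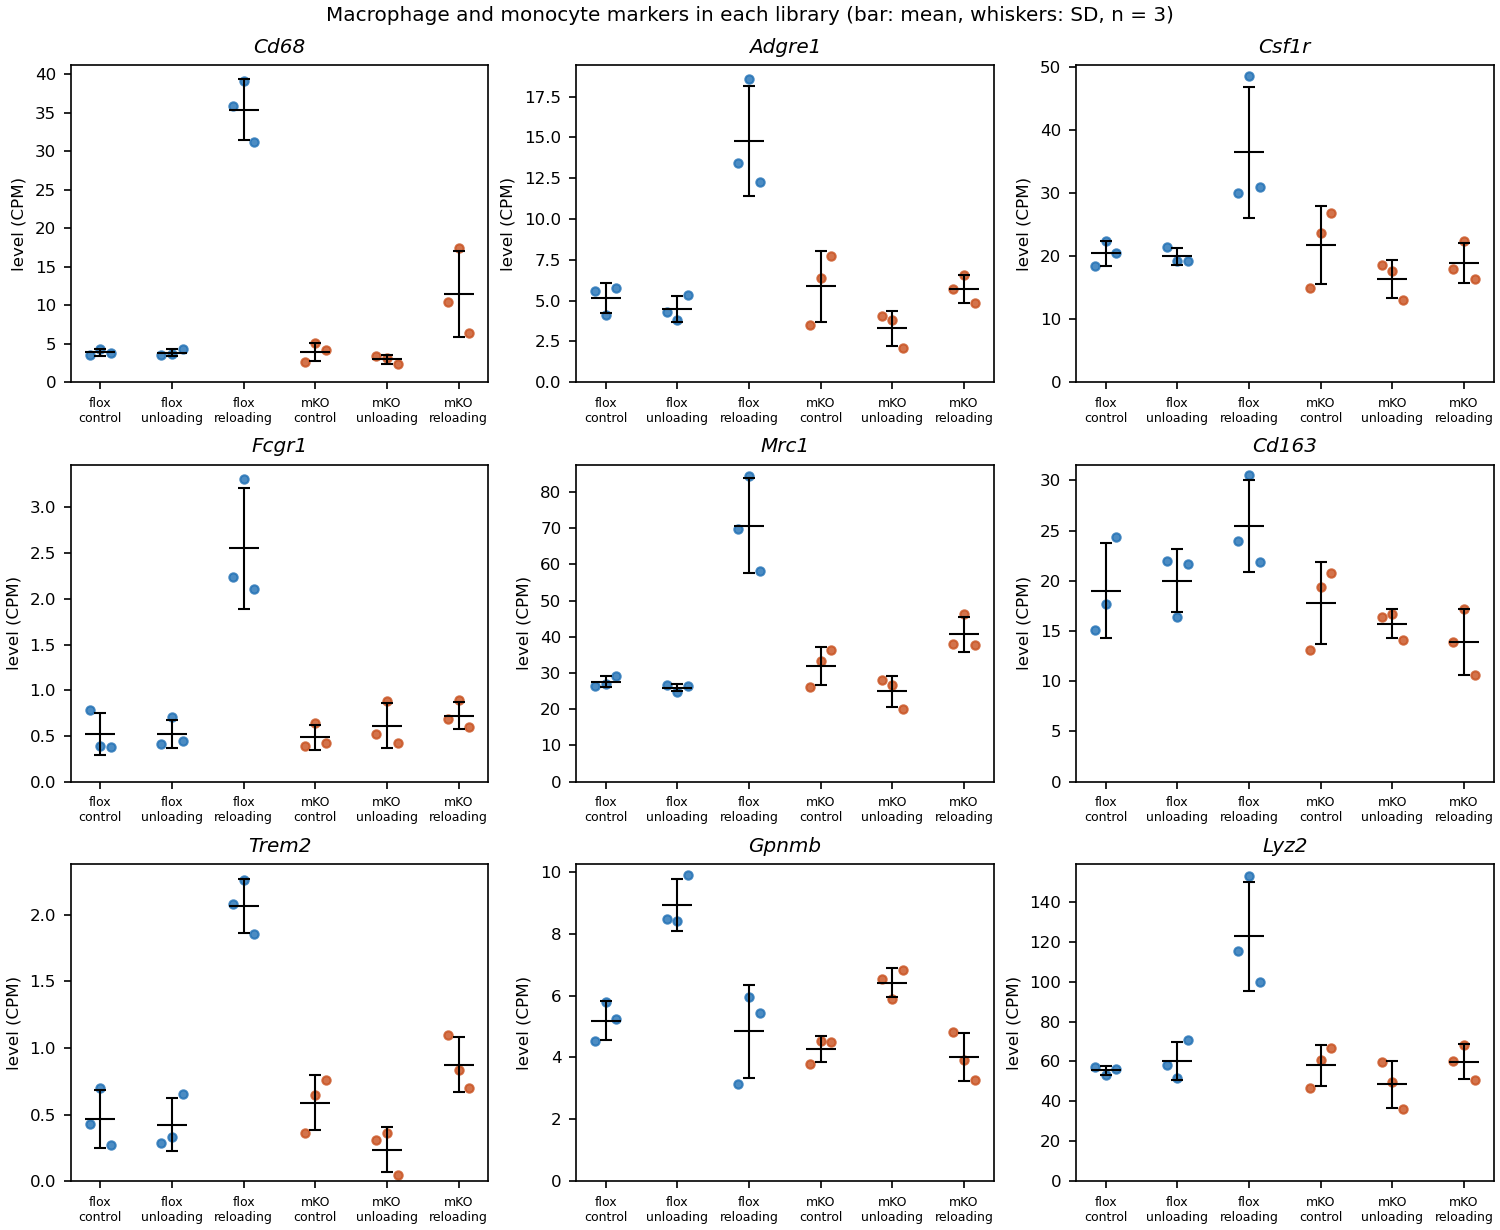
CPM (linear axis from 0) of 9 markers in each of the 18 libraries, flox in blue and mKO in orange; points are libraries, bars the mean and whiskers the SD of 3. The flox reloading points stand apart for Cd68, Fcgr1 and Trem2, those of Cd163 overlap the other flox groups, and Gpnmb is highest in unloading in both genotypes.

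Most of the markers rose in flox muscle after 3 days of reloading. Against flox unloading, 33 of 41 rose, where 17% of all tested genes did, and 1, Gpnmb, fell, where 14.9% did. The median log2 change was 1.14 over the members and 0.00 over all tested genes. The flox reloading and unloading libraries did not overlap for 37 members, against 44% of all genes. The largest rise was that of Cd68, a lysosomal membrane glycoprotein of macrophages, at 3.20 ± 0.28 (SE, adjusted p = 3.78e-07). It was followed by Ms4a7 at 2.48 ± 0.33, Fcgr1 at 2.29 ± 0.34, Trem2 at 2.28 ± 0.44 and Aif1 at 2.07 ± 0.45. The 7 members that did not pass the test were Cd163, Mertk, Axl, Itgax, Cd14, Clec4n and Clec7a.

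Against flox control, 34 of the 41 members were higher in flox reloading, where 12.3% of all tested genes were, and none was lower. The median was 1.26. Cd14, the lipopolysaccharide co-receptor, and Clec4n, the C-type lectin Dectin-2, passed the test here (0.77 ± 0.26 (SE, adjusted p = 0.0376) and 2.001 ± 0.56, adjusted p = 0.0142), although they did not against unloading. The call of Cd14 was lost without any 1 of the 6 compared libraries, at an adjusted p of up to 0.133, and that of Clec4n without flox control replicate 1 or 2 or flox reloading replicate 2, at up to 0.0682. Cbr2 and Gpnmb did not pass, at 0.21 ± 0.13 and -0.10 ± 0.19. Both comparisons use the same reloading libraries. Without flox reloading replicate 2, the library with the highest value for 36 of the 41 members in its group, 24 members passed against control and 30 against unloading.

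In mKO muscle the same 3 days of reloading called 5 members. Mrc1, Cbr2, Trem2 and Cd68 rose, where 9.53% of all tested genes did, and Gpnmb fell, where 8.81% did. The median over the members was 0.34, with 34 of 41 estimates above 0, and the reloading and unloading libraries did not overlap for 10 members against 32.9% of all genes. Against mKO control 1 member was higher, Cd68 at 1.54 ± 0.27 (SE, adjusted p = 0.00779), where 1.34% of all tested genes were, and the median was 0.04. Set side by side, all 5 members called in mKO reloading against unloading were also called in flox, in the same direction. Another 29 were called in flox alone. Over all tested genes more were also called in flox, 17% up and 14.9% down against 9.53% and 8.81% in mKO. The share of all genes called in flox alone was not computed. The estimate was higher in flox for 39 of 41 members, all but Gpnmb and Mertk. Each genotype's change rests on its own libraries.

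**Figure D2:**
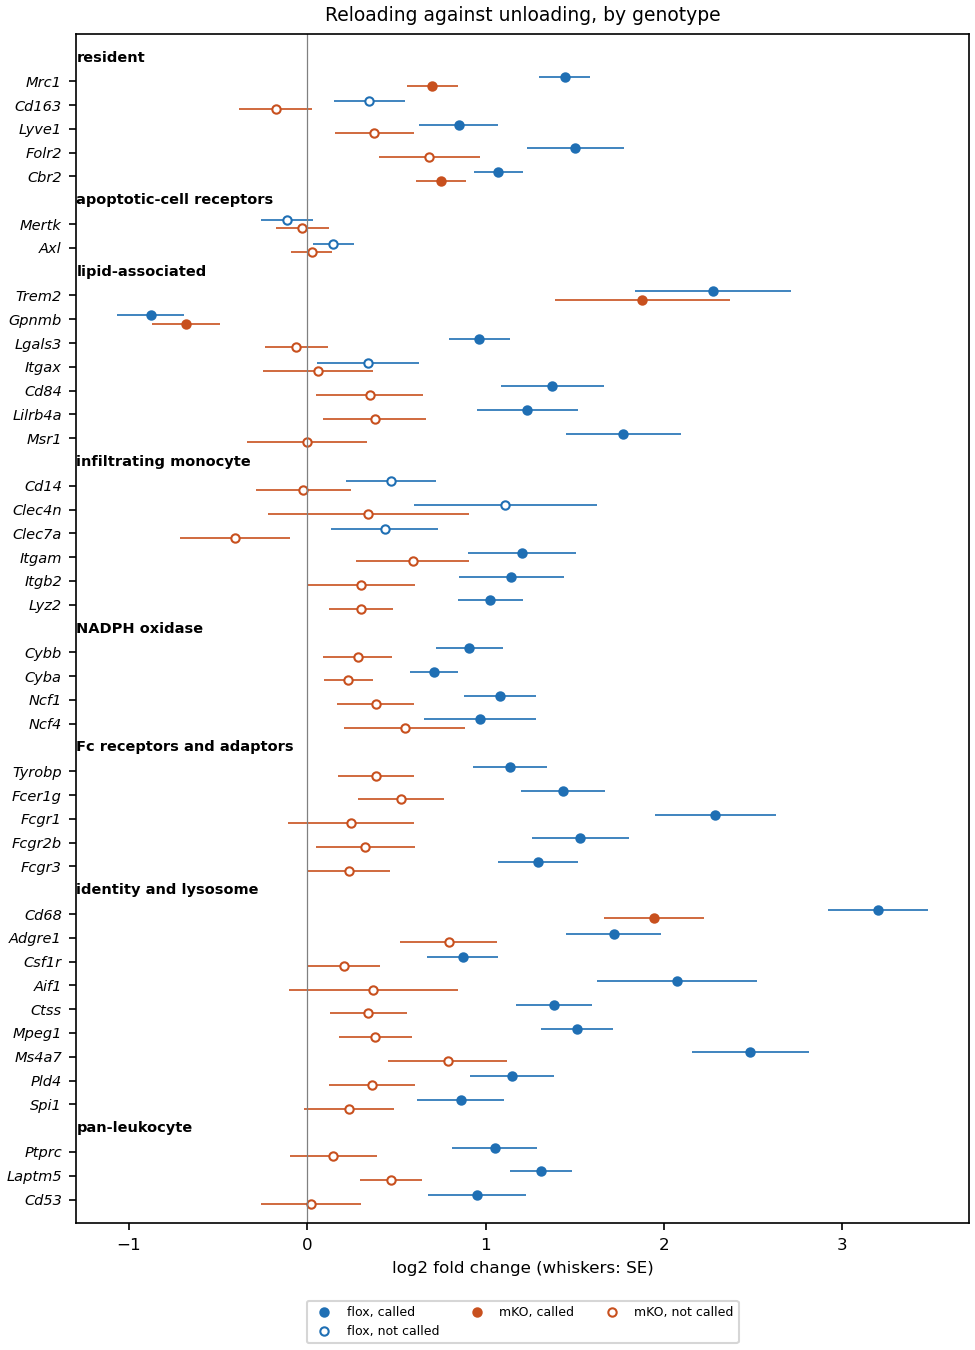
Log2 fold change of reloading against unloading for all 41 members, grouped by role, flox in blue and mKO in orange; whiskers are the SE of the fit and filled points passed the test. In flox 34 points are filled and in mKO 5, and Gpnmb is the filled point below 0 in both.

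The difference between those changes was tested by the interaction of genotype and condition. For reloading against unloading, edgeR called none of the 41 members and 0% of all genes. At an unadjusted p under 0.05 there were 25 members, against 10.5% of all genes. DESeq2 called 6 lower, against 0.907% of the genes it tested, and the median difference was -0.79. For reloading against control, 3 members were called, where 0.499% of all tested genes were called in that direction. They were Mrc1 at -1.01 ± 0.20 (SE, adjusted p = 0.0345), Ctss at -1.59 ± 0.30 (SE, adjusted p = 0.0342) and Laptm5 at -1.18 ± 0.24 (SE, adjusted p = 0.0377), each with the smaller rise in mKO. DESeq2 called 22 members lower in this interaction, against 2.46% of the genes it tested. The count was 0 without flox control replicate 1, 2 or 3, mKO control replicate 2 or 3, flox reloading replicate 1 or 2, or mKO reloading replicate 1 or 3. It was 19 without mKO reloading replicate 2.

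In reloaded muscle itself, macrophage markers were lower in mKO than in flox mice. edgeR called 28 of 41 members lower in mKO reloading, where 3.85% of all tested genes were, and none higher. All 41 estimates were below 0, with a median of -1.12 against 0.00 over all tested genes. The libraries of the genotypes did not overlap for 35 members, against 22.4% of all genes. The lowest estimates were those of Fcgr1 at -1.81 ± 0.33 (SE, adjusted p = 0.00482), Msr1 at -1.72 ± 0.32 (SE, adjusted p = 0.0058), Cd68 at -1.63 ± 0.26 (SE, adjusted p = 0.00225) and Aif1 at -1.61 ± 0.43 (SE, adjusted p = 0.0382). The highest were those of Mertk at -0.08 ± 0.15 and Axl at -0.13 ± 0.12, neither of which passed. The count was 11 without mKO reloading replicate 3, 14 without flox reloading replicate 2 and 33 without mKO reloading replicate 2, the library with the highest value in its group for 36 of the 41 members. The 11 members called whichever library was left out were Mrc1, Lgals3, Lyz2, Cybb, Ncf1, Tyrobp, Fcgr3, Cd68, Ctss, Mpeg1 and Laptm5.

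**Figure D3:**
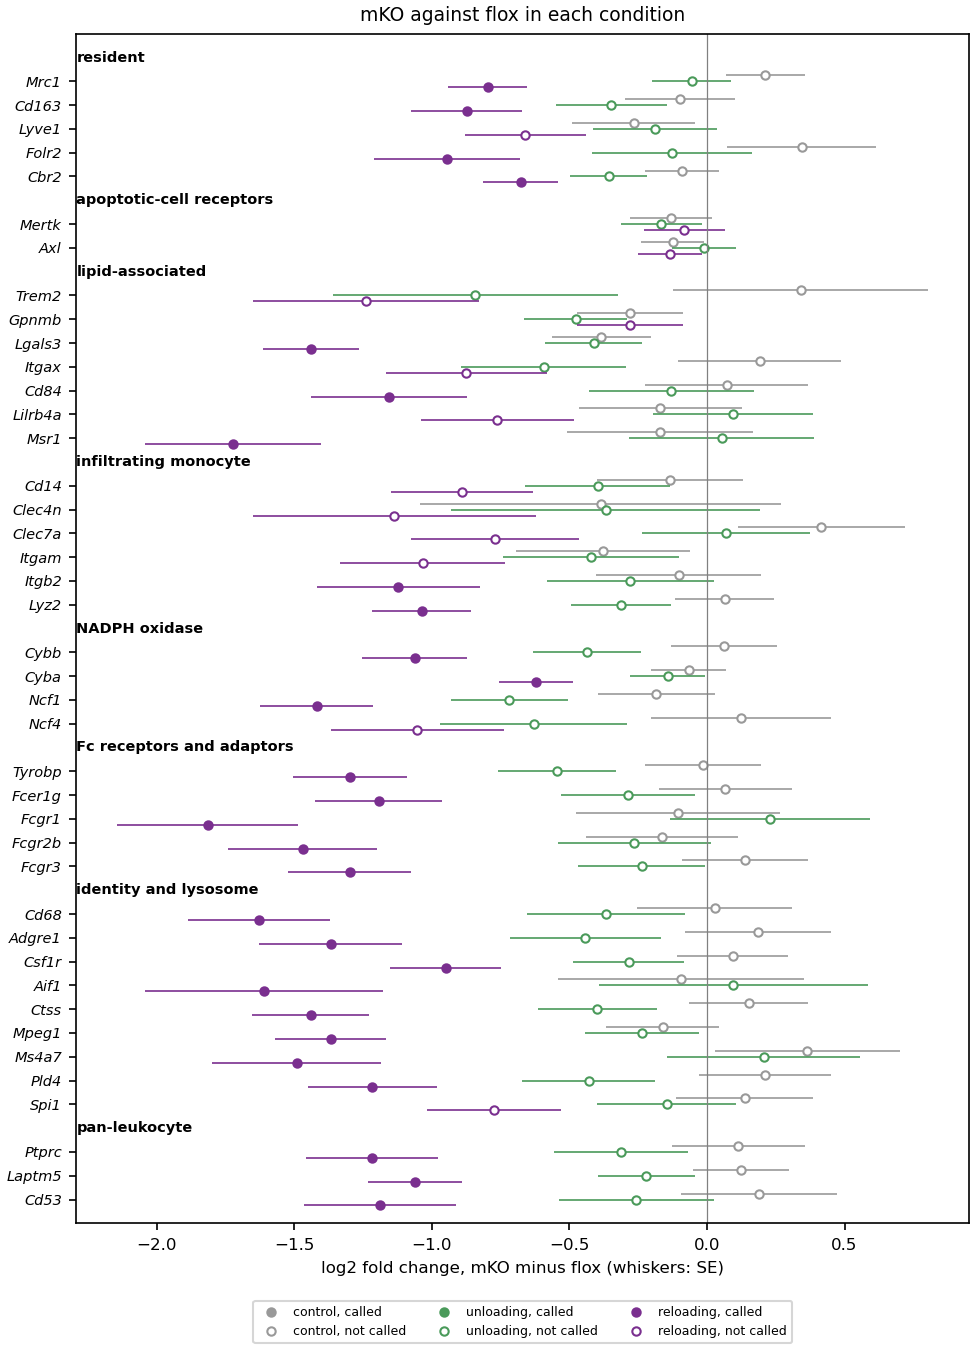
Log2 fold change of mKO against flox for all 41 members in control (grey), unloading (green) and reloading (purple); whiskers are the SE and filled points passed the test. The 28 filled points all belong to reloading and all lie below 0.

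Before reloading no member was called between the genotypes. In control muscle edgeR called no member (0% of all genes), 1 had an unadjusted p under 0.05 (4.03% of all genes), and DESeq2 called 0. In unloaded muscle edgeR again called no member (0% of all genes), 6 had an unadjusted p under 0.05 (4.58% of all genes), and DESeq2 called 0. The median estimate there was -0.28. mKO unloading replicate 3 was the lowest of its group for 31 of 41 members and mKO control replicate 1 for 38. The interaction of genotype with unloading against control called no member and 0% of all genes by edgeR, with 0 at an unadjusted p under 0.05 (4.11% of all genes) and 0 by DESeq2.

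Unloading for 10 days changed few markers. In flox muscle Gpnmb rose by 0.78 ± 0.19 (SE, adjusted p = 0.0206), where 2.67% of all tested genes did. Cbr2, a carbonyl reductase of resident macrophages, fell, at -0.86 ± 0.14 (SE, adjusted p = 0.00167), where 3.07% did, and the median over all members was 0.00. The call of Gpnmb was lost without flox control replicate 1 or 3 or flox unloading replicate 1 or 3, at an adjusted p of up to 0.0983. In mKO muscle Cbr2 fell, at -1.13 ± 0.14 (SE, adjusted p = 0.000192), and so did Folr2, at -0.99 ± 0.28 (SE, adjusted p = 0.0374), where 3.66% of all tested genes did. The call of Folr2 was lost without mKO control replicate 2 or 3 or any 1 of the mKO unloading libraries, while that of Cbr2 held in each case. Over all members the mKO median was -0.28, with 8 of 41 estimates above 0. In that comparison 10 members had an unadjusted p under 0.05, against 23.5% of all genes. The estimate for Gpnmb in mKO muscle was 0.58 ± 0.19 (SE, adjusted p = 0.0697).

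Of the resident markers, 4 of 5 rose in flox reloading against unloading and 4 of 5 were lower in mKO reloading than in flox reloading. Over all tested genes 17% rose in that flox comparison and 3.85% were lower in mKO reloading. Mrc1, the macrophage mannose receptor, stood at 26.5, 27 and 29.2 CPM in flox control, 26.7, 24.7 and 26.5 in flox unloading and 69.6, 84.3 and 58.2 in flox reloading. In mKO mice Mrc1 was at 26.1, 33.2 and 36.5 CPM in control, 28.1, 26.8 and 20.2 in unloading and 38.1, 46.3 and 37.6 in reloading. The reloading libraries of Mrc1 lay above every unloading library of the same genotype, and every flox reloading library lay above every mKO reloading library. The rise was 1.44 ± 0.14 (SE, adjusted p = 1.29e-06) in flox and 0.70 ± 0.14 (SE, adjusted p = 0.00249) in mKO. Cbr2, the carbonyl reductase named above, stood at 16, 16.8 and 16 CPM in flox control, 9.59, 9.27 and 7.95 in flox unloading and 17.6, 22.6 and 16.1 in flox reloading. In mKO mice Cbr2 was at 12.8, 18.4 and 14.6 CPM in control, 6.05, 7.78 and 7.1 in unloading and 11.7, 11.6 and 12 in reloading. Its 3 unloading libraries were the lowest in each genotype, and in flox reloading it did not pass the test against control. Folr2, folate receptor beta, stood at 1.24, 1.42 and 1.22 CPM in flox control, 1.01, 0.765 and 0.919 in flox unloading and 2.26, 3.48 and 1.9 in flox reloading. In mKO mice Folr2 was at 0.987, 1.85 and 2.07 CPM in control, 0.961, 0.888 and 0.62 in unloading and 1.39, 1.31 and 1.27 in reloading. The flox reloading libraries lay above all others of their genotype, and in mKO the change was 0.69 ± 0.28 (SE, adjusted p = 0.103). Its lower call in mKO reloading, -0.95 ± 0.26 (SE, adjusted p = 0.0465), was lost with the replicate block, with only the compared groups and in 14 of 18 fits that left out 1 library, at an adjusted p of up to 0.273. Cd163, the haemoglobin scavenger receptor, stood at 15.1, 17.7 and 24.3 CPM in flox control, 22, 16.4 and 21.6 in flox unloading and 24, 30.6 and 21.9 in flox reloading. In mKO mice Cd163 was at 13.1, 19.3 and 20.8 CPM in control, 16.4, 16.7 and 14.1 in unloading and 13.9, 17.2 and 10.7 in reloading. Cd163 did not pass against unloading in either genotype (0.35 ± 0.20 in flox, -0.18 ± 0.20 in mKO), while mKO reloading was lower than flox reloading by the test, at -0.87 ± 0.20 (SE, adjusted p = 0.0173). Lyve1, a hyaluronan receptor that lymphatic endothelium shares, rose in flox at 0.85 ± 0.22 (SE, adjusted p = 0.00657) and stood at -0.66 ± 0.22 (SE, adjusted p = 0.0908) between genotypes.

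The receptors through which macrophages take up apoptotic cells had the medians nearest 0 of the 8 role groups, 0.02 at flox reloading against unloading and -0.11 between reloaded genotypes. Axl, a receptor tyrosine kinase that non-myeloid cells of muscle also express, stood at 62, 75.8 and 70.6 CPM in flox control, 62.7, 67.1 and 60.7 in flox unloading and 65.7, 78.2 and 66.9 in flox reloading. In mKO mice Axl was at 50.6, 64.7 and 75.8 CPM in control, 62.4, 62.6 and 63.9 in unloading and 58.4, 68.8 and 65 in reloading. In every pair of groups compared the Axl libraries overlapped, and no contrast called Axl. Mertk, the related kinase of mature macrophages, stood at 4.75, 5.34 and 6.64 CPM in flox control, 7.08, 5.42 and 6.13 in flox unloading and 5.65, 5.89 and 5.69 in flox reloading. In mKO mice Mertk was at 4.64, 4.81 and 5.84 CPM in control, 4.85, 5.96 and 5.79 in unloading and 4.71, 6.08 and 5.47 in reloading. Mertk was likewise called in none of the 12 contrasts, with -0.11 ± 0.15 at reloading in flox. Of their ligands, Gas6 and Pros1, both rose in flox reloading, at 0.27 and 0.81.

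The lipid-associated markers split. In flox reloading 5 of 7 rose, Gpnmb fell and Itgax did not pass, and 3 of 7 were lower in mKO reloading. Of all tested genes 17% rose and 14.9% fell in flox, and 3.85% were lower in mKO reloading. Lgals3, galectin-3, stood at 4.66, 5.27 and 4.75 CPM in flox control, 6.03, 5.96 and 8.81 in flox unloading and 12.7, 14.6 and 13.2 in flox reloading. In mKO mice Lgals3 was at 3.26, 4.1 and 3.87 CPM in control, 6.38, 4.92 and 4.34 in unloading and 5.28, 5.78 and 3.91 in reloading. In both genotypes the unloading libraries of Lgals3 lay above the controls, although neither unloading contrast called it. In flox the reloading libraries lay above both, whereas in mKO reloading Lgals3 overlapped unloading. Its mKO to flox difference at reloading was -1.44 ± 0.17 (SE, adjusted p = 0.000408), and at reloading against unloading it was 0.96 ± 0.17 (SE, adjusted p = 0.00034) in flox and -0.06 ± 0.18 (SE, adjusted p = 0.852) in mKO. Gpnmb, a transmembrane glycoprotein of lysosome-rich macrophages, stood at 4.54, 5.79 and 5.24 CPM in flox control, 8.48, 8.4 and 9.91 in flox unloading and 3.14, 5.97 and 5.44 in flox reloading. In mKO mice Gpnmb was at 3.8, 4.53 and 4.51 CPM in control, 6.53, 5.89 and 6.82 in unloading and 4.82, 3.92 and 3.28 in reloading. Gpnmb was highest in unloading in both genotypes and, unlike every other member called at reloading, fell, at -0.88 ± 0.19 (SE, adjusted p = 0.00162) in flox and -0.68 ± 0.19 (SE, adjusted p = 0.0189) in mKO. The mKO call was lost without mKO unloading replicate 1 or 3 or mKO reloading replicate 2 or 3. Which cells of the whole muscle carried the Gpnmb RNA was not tested. Trem2, a lipid-sensing receptor, stood at 0.426, 0.700 and 0.27 CPM in flox control, 0.288, 0.331 and 0.654 in flox unloading and 2.08, 2.26 and 1.86 in flox reloading. In mKO mice Trem2 was at 0.365, 0.644 and 0.762 CPM in control, 0.306, 0.364 and 0.0427 in unloading and 1.1, 0.834 and 0.697 in reloading. Trem2 rose in both genotypes, at 2.28 ± 0.44 (SE, adjusted p = 0.000697) and 1.88 ± 0.49 (SE, adjusted p = 0.0124), and had the lowest level per kb of all members in flox control. The mKO value rests on few counts, and without mKO unloading replicate 3, which held 2 counts, it was 1.38 at an adjusted p of 0.0515. Msr1, scavenger receptor A, stood at 1.15, 0.897 and 2.05 CPM in flox control, 1.13, 1.39 and 1.41 in flox unloading and 3.57, 5.89 and 3.97 in flox reloading. In mKO mice Msr1 was at 0.901, 1.31 and 1.42 CPM in control, 1.75, 1.48 and 0.855 in unloading and 1.26, 1.89 and 0.901 in reloading. Msr1 rose in flox, at 1.77 ± 0.32 (SE, adjusted p = 0.000421), and did not pass in mKO, with an adjusted p of 0.996. The interaction did not pass either, at -1.78 ± 0.46 (SE, adjusted p = 0.163). Cd84, a SLAM-family adhesion receptor, was at 3.73, 5.63 and 3.53 CPM in flox reloading against 1.92, 1.76 and 2.11 in mKO reloading. Before reloading Cd84 was at 2.26, 1.44 and 1.53 (flox control), 1.19, 1.2 and 2.57 (flox unloading), 1.59, 2.11 and 1.8 (mKO control) and 1.75, 1.78 and 1.03 CPM (mKO unloading). The genotypes did not overlap at reloading, as for 22.4% of all genes. Lilrb4a, an inhibitory receptor, rose in flox at 1.23 ± 0.28 (SE, adjusted p = 0.00276), and Itgax, which encodes CD11c, had 0.34 ± 0.28 (SE, adjusted p = 0.393).

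Among markers of infiltrating and inflammatory monocytes, 3 of 6 rose in flox reloading, none in mKO, and 2 were lower in mKO reloading. The shares of all tested genes were 17%, 9.53% and 3.85%, so the mKO count was near its share. Lyz2, lysozyme M, stood at 57.4, 53.2 and 56 CPM in flox control, 58.3, 51.7 and 70.8 in flox unloading and 115, 153 and 99.9 in flox reloading. In mKO mice Lyz2 was at 46.6, 61 and 66.8 CPM in control, 59.8, 49.7 and 36.1 in unloading and 60.1, 68.4 and 50.9 in reloading. Every flox reloading library of Lyz2 lay above all other libraries of that genotype, with 1.03 ± 0.18 (SE, adjusted p = 0.000324) at reloading. The mKO reloading libraries overlapped those of unloading, at 0.30 ± 0.18 (SE, adjusted p = 0.273). Itgb2, the beta chain of the leukocyte integrins, stood at 5.24, 3.43 and 4.14 CPM in flox control, 4.12, 2.36 and 5.72 in flox unloading and 7.81, 12.3 and 6.84 in flox reloading. In mKO mice Itgb2 was at 2.73, 5.03 and 4.17 CPM in control, 4.24, 3.23 and 2.59 in unloading and 3.56, 5.06 and 3.75 in reloading. Itgb2 rose in flox at 1.14 ± 0.30 (SE, adjusted p = 0.00628), a call lost without flox reloading replicate 2 at an adjusted p of 0.053. Itgam, which encodes CD11b and shares most of its exon bases with Gm49368, stood at 2.17, 1.71 and 2.18 CPM in flox control, 1.13, 1.61 and 3.06 in flox unloading and 4.28, 5.69 and 3.41 in flox reloading. In mKO mice Itgam was at 1.35, 1.43 and 1.88 CPM in control, 1.44, 1.64 and 1.26 in unloading and 1.83, 3.09 and 1.6 in reloading. Itgam rose in flox at 1.20 ± 0.30 (SE, adjusted p = 0.00533) and had -1.03 ± 0.30 (SE, adjusted p = 0.0546) between genotypes at reloading. Cd14, Clec4n and Clec7a, pattern receptors of the innate response, had 0.47 ± 0.25, 1.11 ± 0.51 and 0.43 ± 0.30 in flox reloading against unloading, none of which passed.

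All 4 members that encode the phagocyte NADPH oxidase rose in flox reloading, where 17% of all tested genes did. None was called in mKO, where 9.53% of all tested genes rose, so the mKO count was near that share. Cyba, the p22phox subunit that many cell types use, stood at 6.03, 6.54 and 4.59 CPM in flox control, 5.27, 4.63 and 5.7 in flox unloading and 8.79, 8.52 and 8.2 in flox reloading. In mKO mice Cyba was at 5.84, 5.85 and 4.7 CPM in control, 5.11, 4.51 and 4.51 in unloading and 5.3, 5.95 and 5.33 in reloading. Cyba had the smallest rise of the 4, at 0.71 ± 0.13 (SE, adjusted p = 0.000576). Cybb, the catalytic gp91phox subunit, stood at 6.43, 5.73 and 5.87 CPM in flox control, 7.31, 4.94 and 6.27 in flox unloading and 10.5, 13.8 and 10.5 in flox reloading. In mKO mice Cybb was at 5.45, 5.79 and 7.6 CPM in control, 5.44, 4.67 and 3.59 in unloading and 5.23, 6.95 and 4.45 in reloading. The flox reloading libraries stood above every other library of Cybb in flox and in mKO reloading, with 0.91 ± 0.19 (SE, adjusted p = 0.00132). Ncf1, the p47phox organiser, stood at 2.28, 2.01 and 2.95 CPM in flox control, 2.53, 2.48 and 3.35 in flox unloading and 5.41, 7.43 and 4.89 in flox reloading. In mKO mice Ncf1 was at 1.95, 2.17 and 2.24 CPM in control, 1.94, 1.71 and 1.43 in unloading and 2.17, 2.71 and 1.74 in reloading. Ncf1 rose at 1.08 ± 0.20 (SE, adjusted p = 0.000516) and was lower in mKO reloading at -1.42 ± 0.21 (SE, adjusted p = 0.00138). Ncf4, the p40phox regulator, stood at 0.618, 0.787 and 0.833 CPM in flox control, 0.782, 0.889 and 0.674 in flox unloading and 1.22, 2.24 and 1.13 in flox reloading. In mKO mice Ncf4 was at 0.579, 0.985 and 0.868 CPM in control, 0.611, 0.41 and 0.492 in unloading and 0.457, 1.0 and 0.737 in reloading. Ncf4 rose at 0.97 ± 0.31 (SE, adjusted p = 0.0242), a call lost without flox unloading replicate 1 or 3 or flox reloading replicate 2, and did not pass between genotypes, at -1.05 ± 0.31 (SE, adjusted p = 0.061).

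The Fc receptors and the adaptors Fcer1g and Tyrobp moved together: 5 of 5 rose in flox reloading, none in mKO, and 5 of 5 were lower in mKO reloading. The shares of all tested genes were 17%, 9.53% and 3.85%, so the mKO count was near its share. Tyrobp, the adaptor DAP12, which carries the Trem2 signal, stood at 4.26, 3.26 and 3.31 CPM in flox control, 3.21, 3.54 and 4.54 in flox unloading and 7.75, 9.86 and 7.22 in flox reloading. In mKO mice Tyrobp was at 2.75, 3.96 and 4.0 CPM in control, 3.36, 2.53 and 1.84 in unloading and 3.25, 3.77 and 3.07 in reloading. For Tyrobp the flox reloading libraries lay above all others of the genotype and above those of mKO reloading. Fcer1g, the common gamma chain of Fc receptors, stood at 2.98, 1.88 and 2.41 CPM in flox control, 2.24, 3.14 and 2.45 in flox unloading and 7.26, 7.95 and 5.98 in flox reloading. In mKO mice Fcer1g was at 1.8, 3.14 and 2.67 CPM in control, 2.6, 2.21 and 1.62 in unloading and 2.95, 3.9 and 2.4 in reloading. Fcer1g rose at 1.43 ± 0.23 (SE, adjusted p = 0.00016) in flox and had 0.53 ± 0.24 (SE, adjusted p = 0.142) in mKO. Fcgr1, the high-affinity IgG receptor CD64, stood at 0.788, 0.394 and 0.383 CPM in flox control, 0.412, 0.703 and 0.449 in flox unloading and 2.24, 3.32 and 2.11 in flox reloading. In mKO mice Fcgr1 was at 0.386, 0.644 and 0.423 CPM in control, 0.524, 0.888 and 0.427 in unloading and 0.686, 0.891 and 0.594 in reloading. Fcgr1 showed the largest change of the group, 2.29 ± 0.34 (SE, adjusted p = 6.56e-05), with no overlap of the flox libraries, whereas in mKO the change was 0.25 ± 0.35 (SE, adjusted p = 0.683) and the libraries overlapped. Fcgr2b, the inhibitory IgG receptor, stood at 6.07, 5.05 and 6.66 CPM in flox control, 4.75, 4.43 and 7.76 in flox unloading and 14.4, 19.3 and 15.3 in flox reloading. In mKO mice Fcgr2b was at 3.33, 6.9 and 5.63 CPM in control, 5.46, 5.03 and 3.63 in unloading and 4.07, 8.26 and 5.31 in reloading. The activating and the inhibitory receptor thus both rose in flox, Fcgr2b at 1.53 ± 0.27 (SE, adjusted p = 0.000338) and Fcgr3, the low-affinity receptor, at 1.30 ± 0.22 (SE, adjusted p = 0.000267). Fcgr3, also known as CD16, was at 10.7, 11.9 and 8.72 CPM in flox reloading against 3.66, 5.68 and 3.36 in mKO reloading. Before reloading Fcgr3 was at 4.22, 4.4 and 3.56 (flox control), 4.86, 4.05 and 3.84 (flox unloading), 3.5, 5.81 and 4.06 (mKO control) and 3.89, 4.39 and 2.54 CPM (mKO unloading). Reloaded flox and mKO muscle did not overlap for any of the 5, where 22.4% of all genes did not overlap.

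All 9 identity and lysosome markers rose in flox reloading, 1 rose in mKO, and 8 were lower in mKO reloading. The shares of all tested genes were 17%, 9.53% and 3.85%, so the mKO count was near its share. Cd68, introduced above, stood at 3.47, 4.31 and 3.78 CPM in flox control, 3.56, 3.64 and 4.31 in flox unloading and 35.8, 39 and 31.2 in flox reloading. In mKO mice Cd68 was at 2.62, 5.03 and 4.13 CPM in control, 3.41, 3.19 and 2.33 in unloading and 10.4, 17.5 and 6.41 in reloading. Every reloading library of either genotype lay above every control and unloading library, and every flox reloading library above every mKO reloading library. Against unloading the change was 3.20 ± 0.28 (SE, adjusted p = 3.78e-07) in flox and 1.94 ± 0.28 (SE, adjusted p = 0.000151) in mKO, with an interaction of -1.26 ± 0.38 (SE, adjusted p = 0.236). Ctss, the cysteine protease cathepsin S, stood at 7.48, 8.03 and 8.31 CPM in flox control, 8.5, 8.07 and 11.7 in flox unloading and 22.3, 29.5 and 21.9 in flox reloading. In mKO mice Ctss was at 7.9, 8.0 and 10.5 CPM in control, 8.23, 8.22 and 5.0 in unloading and 9.37, 11.5 and 6.29 in reloading. Ctss rose in flox at 1.38 ± 0.21 (SE, adjusted p = 8.96e-05), and in mKO the reloading and unloading libraries overlapped, at 0.34 ± 0.22 (SE, adjusted p = 0.301). Ms4a7, a tetraspanning membrane protein of macrophages, stood at 0.596, 0.743 and 1.01 CPM in flox control, 0.823, 0.517 and 0.572 in flox unloading and 3.04, 4.76 and 2.93 in flox reloading. In mKO mice Ms4a7 was at 0.773, 1.05 and 1.21 CPM in control, 0.83, 0.933 and 0.449 in unloading and 0.868, 1.82 and 1.11 in reloading. Ms4a7 rose in flox at 2.48 ± 0.33 (SE, adjusted p = 2.07e-05) and had 0.79 ± 0.33 (SE, adjusted p = 0.112) in mKO. Adgre1, which encodes the antigen F4/80, was at 13.5, 18.6 and 12.3 CPM in flox reloading against 5.74, 6.57 and 4.86 in mKO reloading. Before reloading Adgre1 was at 5.6, 4.13 and 5.76 (flox control), 4.28, 3.81 and 5.37 (flox unloading), 3.48, 6.42 and 7.72 (mKO control) and 4.04, 3.8 and 2.07 CPM (mKO unloading). Csf1r, the receptor for the macrophage growth factors CSF1 and IL-34, was at 30.0, 48.5 and 30.9 CPM in flox reloading against 17.9, 22.4 and 16.4 in mKO reloading. Before reloading Csf1r was at 18.4, 22.4 and 20.4 (flox control), 21.4, 19.2 and 19.2 (flox unloading), 14.9, 23.6 and 26.8 (mKO control) and 18.5, 17.6 and 13 CPM (mKO unloading).

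For both genes the genotypes did not overlap at reloading, as for 22.4% of all genes. Csf1r had the smaller rise in flox, 0.87 ± 0.20 (SE, adjusted p = 0.00278) against 1.72 ± 0.27 (SE, adjusted p = 9.5e-05) for Adgre1. Aif1, the calcium-binding protein IBA1, was at 1.26, 2.02 and 1.76 CPM in flox reloading against 0.411, 0.758 and 0.471 in mKO reloading. Before reloading Aif1 was at 0.724, 0.743 and 0.63 (flox control), 0.309, 0.558 and 0.327 (flox unloading), 0.472, 0.543 and 0.952 (mKO control) and 0.83, 0.319 and 0.128 CPM (mKO unloading). Aif1 was among the least counted members and its call between genotypes, -1.61 ± 0.43 (SE, adjusted p = 0.0382), was lost without flox control replicate 2, any 1 of the flox reloading libraries, or mKO reloading replicate 1 or 3. Mpeg1, the pore-forming protein perforin-2, was at 15.5, 23.5 and 17.6 CPM in flox reloading against 6.76, 8.09 and 7.11 in mKO reloading. Before reloading Mpeg1 was at 8.65, 6.17 and 6.91 (flox control), 6.48, 5.56 and 7.8 (flox unloading), 5.02, 7.08 and 7.32 (mKO control) and 7.23, 5.48 and 4.15 CPM (mKO unloading). Mpeg1 differed between genotypes at -1.37 ± 0.20 (SE, adjusted p = 0.00138), and this call held whichever library was left out. Pld4, a lysosomal exonuclease, was at 9.69, 13 and 9.06 CPM in flox reloading against 4.66, 5.7 and 3.28 in mKO reloading. Before reloading Pld4 was at 4.37, 4.35 and 3.56 (flox control), 5.17, 3.85 and 5.29 (flox unloading), 4.14, 5.09 and 4.97 (mKO control) and 4.32, 4.21 and 2.09 CPM (mKO unloading). Pld4 differed at -1.22 ± 0.23 (SE, adjusted p = 0.00681). Spi1 itself rose in flox at 0.86 ± 0.24 (SE, adjusted p = 0.0113), lost without flox unloading replicate 1 or flox reloading replicate 2, and had -0.78 ± 0.24 (SE, adjusted p = 0.0737) between genotypes.

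The pan-leukocyte genes rose in flox, 3 of 3, were called 0 of 3 in mKO and were lower in mKO reloading, 3 of 3. The shares of all tested genes were 17% up in flox, 9.53% up in mKO and 3.85% lower in mKO reloading. The mKO count was near its share. Laptm5, a lysosomal membrane protein of blood cells, stood at 8.39, 8.2 and 7.83 CPM in flox control, 7.43, 7.18 and 9.07 in flox unloading and 17.2, 24.3 and 17.3 in flox reloading. In mKO mice Laptm5 was at 6.48, 11 and 9.08 CPM in control, 7.82, 6.65 and 5.86 in unloading and 9.64, 10.3 and 8.26 in reloading. The flox reloading libraries of Laptm5 lay above all others, at 1.31 ± 0.17 (SE, adjusted p = 2.06e-05), and the mKO change was 0.47 ± 0.18 (SE, adjusted p = 0.0713). Cd53, a leukocyte tetraspanin, stood at 3.0, 2.56 and 3.94 CPM in flox control, 4.65, 2.9 and 4.35 in flox unloading and 7.0, 10.7 and 5.35 in flox reloading. In mKO mice Cd53 was at 3.15, 4.38 and 3.28 CPM in control, 3.65, 4.21 and 2.12 in unloading and 3.02, 4.24 and 2.83 in reloading. Cd53 rose at 0.95 ± 0.27 (SE, adjusted p = 0.0123), a call lost without flox unloading replicate 2 or flox reloading replicate 2. Ptprc, the phosphatase CD45 of all leukocytes, stood at 8.09, 6.45 and 6.57 CPM in flox control, 6.15, 5.94 and 9.89 in flox unloading and 14, 18.7 and 12.9 in flox reloading. In mKO mice Ptprc was at 5.92, 8.49 and 8.42 CPM in control, 7.64, 6.05 and 4.02 in unloading and 4.96, 8.11 and 6.49 in reloading. Ptprc rose at 1.05 ± 0.24 (SE, adjusted p = 0.0025) and differed between reloaded genotypes at -1.22 ± 0.24 (SE, adjusted p = 0.00773).

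**Figure D4:**
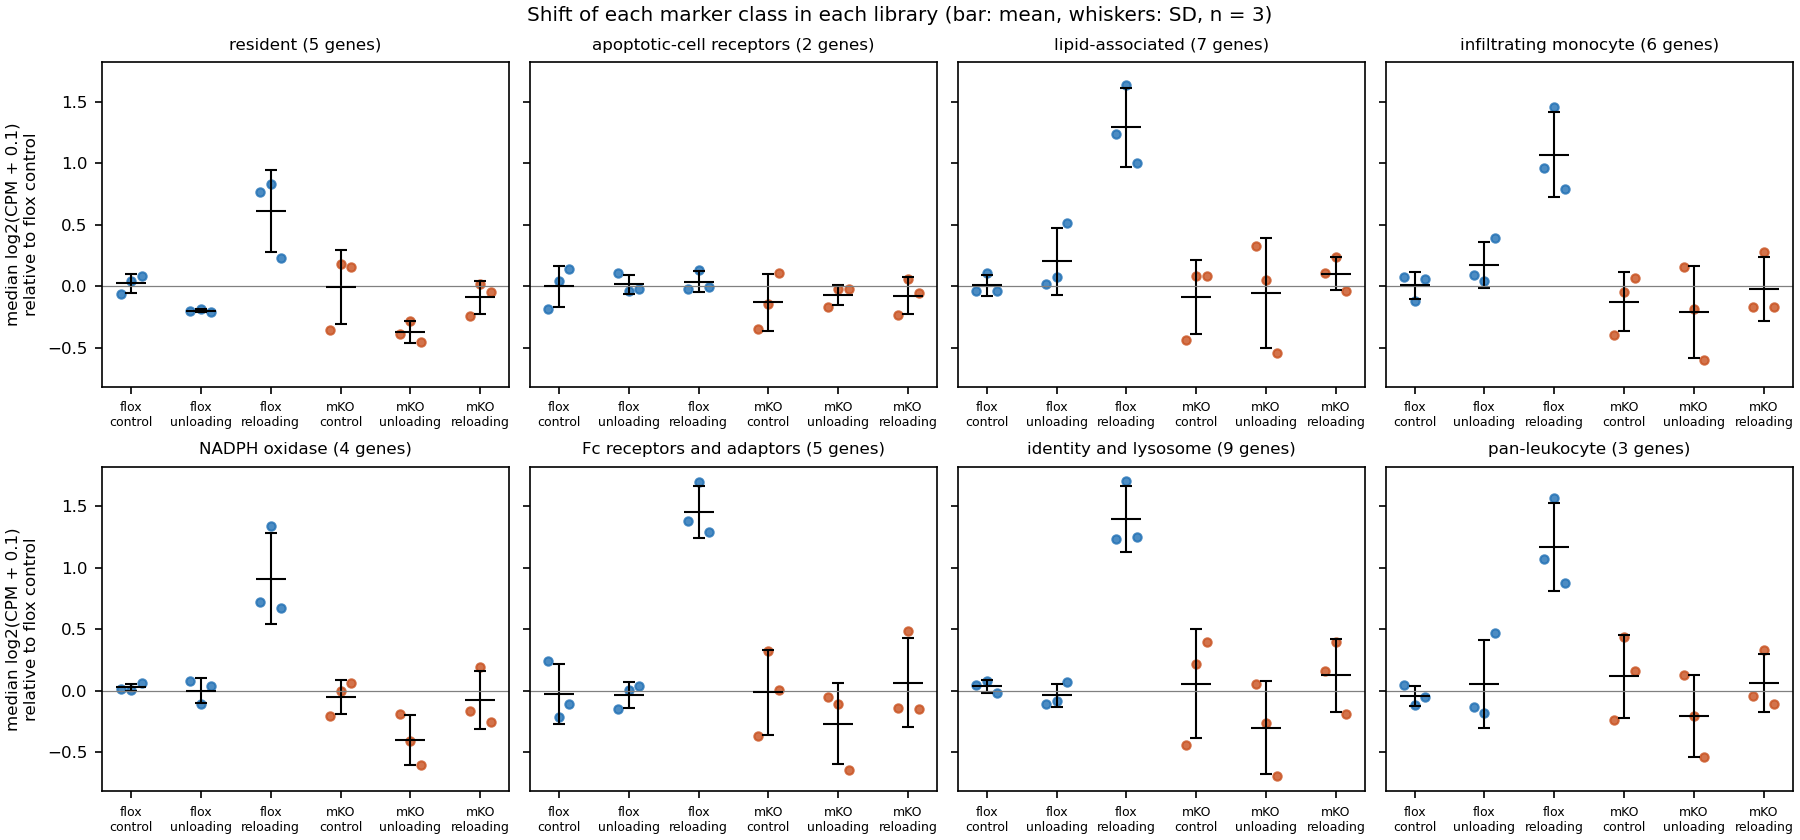
Median over the genes of each role group of log2(CPM + 0.1) relative to the mean of flox control, in each of the 18 libraries, flox in blue and mKO in orange; bars and whiskers are the mean and SD of 3 libraries. Flox reloading stands above the other groups in 7 of the 8 panels, and the apoptotic-cell receptors stay near 0 in every group.

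The mix of marker RNA differed between the groups. As a share of the summed CPM per kb of all 41 members, the identity and lysosome genes held 14.2% ± 0.38 (SD, n = 3) in flox control, 14.7% ± 0.294 in flox unloading and 24.1% ± 0.565 in flox reloading. In mKO they held 15.1% ± 0.835, 14% ± 1.33 and 18.1% ± 2.84. The resident genes held 18.6% ± 1.09 in flox control, 14% ± 1.5 in flox unloading and 13.1% ± 0.539 in flox reloading, so the unloading share already lay near the reloading one. In mKO they held 17.9% ± 1.06, 14.4% ± 2.13 and 16.1% ± 1.38. The apoptotic-cell receptors held 11.4% ± 1.13, 10.8% ± 1.43 and 5.41% ± 0.531 across the flox groups and 10.4% ± 0.721, 13% ± 2.55 and 10.1% ± 1.43 across the mKO groups. The infiltrating monocyte genes, mostly Lyz2, held 34.5% ± 1.38, 37.4% ± 2.32 and 34.8% ± 1.43 across the flox groups. Cd68 moved from the 11th highest mean per kb in flox control to the 2nd in flox reloading and the 3rd in mKO reloading. These shares carry no test.

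Levels relative to Csf1r, the growth factor receptor of macrophages, show the same unequal change within a library, with the limit that exons of Hmgxb3 cover 17.8% of the Csf1r exon bases. The genes in this comparison were chosen after their values were seen, and the ratios are a description. Cd68 stood at 0.734 ± 0.0143 times the Csf1r level per kb in flox control, 0.752 ± 0.114 in flox unloading and 3.9 ± 0.755 in flox reloading. In mKO it stood at 0.703 ± 0.115, 0.705 ± 0.00782 and 2.27 ± 0.757, so the reloading libraries of both genotypes lay apart from those before reloading. The ratio of Mrc1 was 1.0 ± 0.0527 in flox unloading and 1.52 ± 0.232 in flox reloading, and 1.17 ± 0.0168 and 1.66 ± 0.091 in mKO. Fcgr1 went from 0.0499 ± 0.0172 to 0.133 ± 0.0071 in flox, against 0.0702 ± 0.022 and 0.0719 ± 0.00334 in mKO. Cd163 had 0.897 ± 0.124 in flox unloading and 0.637 ± 0.0756 in flox reloading, and Gpnmb 0.337 ± 0.046 and 0.101 ± 0.0277. For Lyz2 the ratio was 10.2 ± 1.37, 11.3 ± 2.11 and 12.6 ± 1.39 across the flox groups. Relative to Csf1r, reloaded mKO muscle overlapped reloaded flox muscle for Mrc1, Cd163, Trem2, Gpnmb and Lyz2. It lay below it for Cd68, Fcgr1, Adgre1, Ms4a7 and Aif1. The ratios were not computed for other genes, so no share of all genes can be set beside these.

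**Figure D5:**
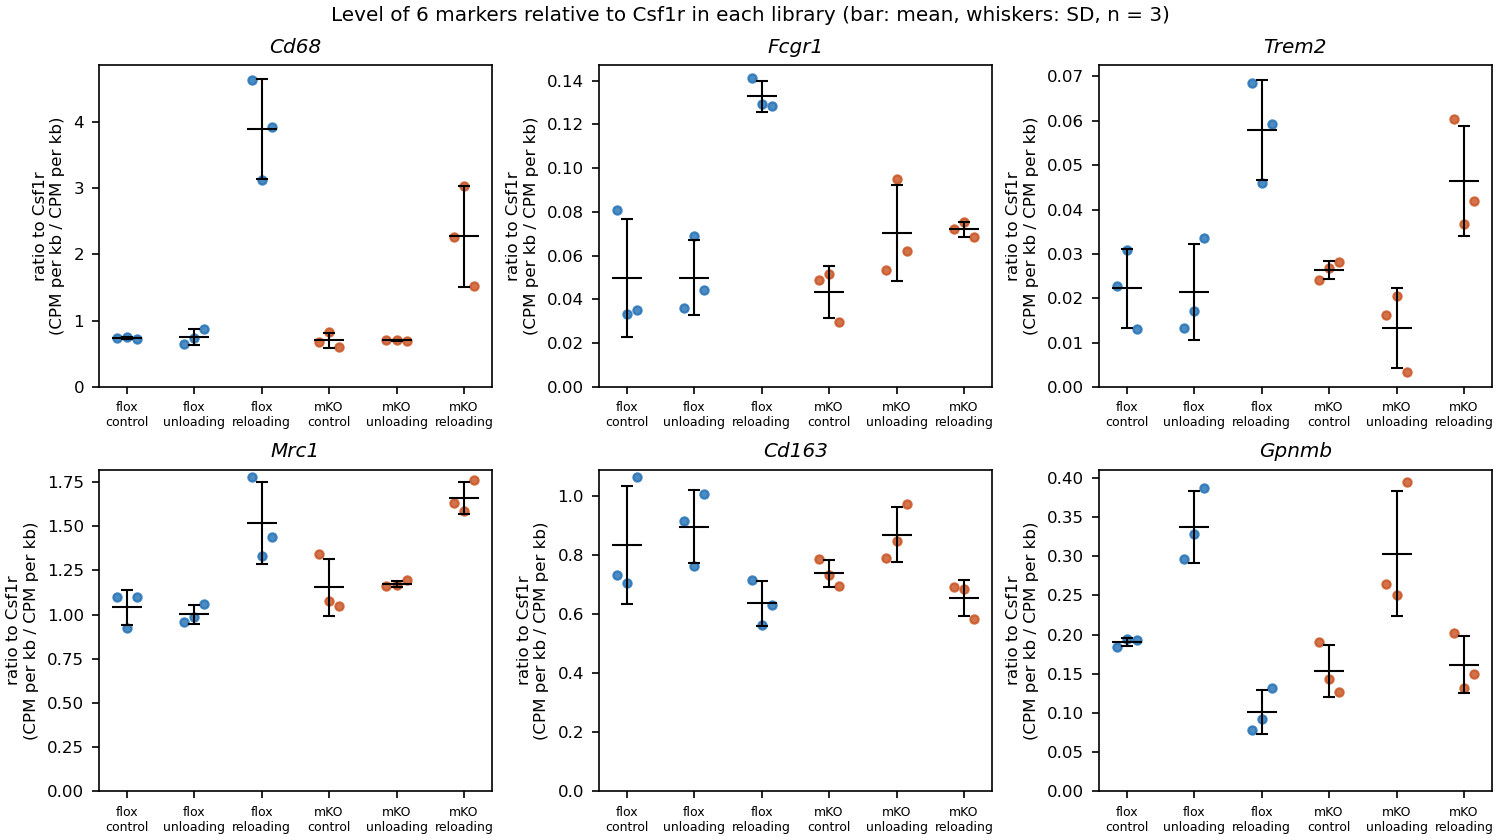
Ratio of the CPM per kb of 6 markers to that of Csf1r in the same library, flox in blue and mKO in orange; points are libraries, bars the mean and whiskers the SD of 3. The Cd68 ratio is higher in reloading than before it in both genotypes, and that of Fcgr1 is higher in flox reloading than in all other groups.

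Other genes known from the same cells were read from lists by role, against the shares of all tested genes given above (17% up and 14.9% down in flox reloading against unloading, 9.53% up in mKO, and 3.85% lower in mKO reloading). Of 13 genes of ITAM and integrin signalling, which act downstream of Tyrobp, Fcer1g and Itgb2, 12 rose in flox reloading against unloading, 0 were called in mKO, and 10 were lower in mKO reloading. Of 12 other resident genes, 8 rose and 1 fell in flox, 3 rose in mKO, and 7 were lower in mKO reloading. Siglec1, the sialic acid receptor CD169, had 2.02 ± 0.32 (SE, adjusted p = 0.000125) in flox, and C1qb, a complement subunit that macrophages make, had 1.57 ± 0.19 (SE, adjusted p = 1.12e-05) in flox and 0.69 ± 0.20 (SE, adjusted p = 0.0206) in mKO. Of 9 other monocyte genes, 5 rose in flox, 2 rose in mKO and 4 were lower in mKO reloading. Cx3cr1, the fractalkine receptor, had the largest change among them in flox, 3.46 ± 0.40 (SE, adjusted p = 5.2e-06), and 1.24 ± 0.39 (SE, adjusted p = 0.0345) in mKO. Ccr2, the receptor that draws monocytes from blood, had 1.24 ± 0.26 (SE, adjusted p = 0.0013) in flox, and -1.18 ± 0.26 (SE, adjusted p = 0.0124) between reloaded genotypes. Of 11 other lipid-associated genes, 2 rose and 1 fell in flox, and 2 were lower in mKO reloading, so the flox counts were near or below those shares. Their values included Fabp5 at 0.86 ± 0.15 (SE, adjusted p = 0.000289) and Apoe at -0.46 ± 0.18 (SE, adjusted p = 0.0656).

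Of the growth factors that bind Csf1r, Csf1 had 0.64 ± 0.09 (SE, adjusted p = 2.83e-05) in flox, 0.34 ± 0.09 (SE, adjusted p = 0.0114) in mKO and -0.40 ± 0.09 (SE, adjusted p = 0.0117) between reloaded genotypes, while Il34 had -0.31 ± 0.22 (SE, adjusted p = 0.315) in flox. Myeloid transcription factors went both ways in flox reloading, with 4 of 10 higher and 4 lower. Irf5 rose at 1.67 ± 0.27 (SE, adjusted p = 0.000122) and Runx1 at 1.35 ± 0.21 (SE, adjusted p = 9.76e-05), while Maf, a factor of resident macrophages that muscle also expresses, fell, at -0.72 ± 0.10 (SE, adjusted p = 4.71e-05). Between reloaded genotypes Runx1 was lower in mKO at -1.07 ± 0.21 (SE, adjusted p = 0.00676) and Maf higher at 0.48 ± 0.10 (SE, adjusted p = 0.0116). Of 5 tested activation genes 1 rose in flox reloading, a share near the 17% of all genes, and none was called in mKO.

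Sums for some other cell types also lay apart between reloaded flox and mKO muscle. That of 5 dendritic cell genes was 12.59 to 14.99 CPM in flox reloading and 10.4 to 11.23 in mKO reloading. The neutrophil sums given above, 1.45 to 2.87 and 0.868 to 1.23, lay apart as well. No dendritic cell gene and no tested neutrophil gene was called between these groups. The sums of T cell, B cell, NK cell, lymphatic endothelial and fibro-adipogenic progenitor genes overlapped. The summed CPM of 5 mast cell genes was 19.2 to 29.3 in flox reloading and 14.4 to 17.1 in mKO reloading, that of 2 blood endothelial genes 203 to 233 and 162 to 185, and that of 3 proliferation genes 38.7 to 55.7 and 8.79 to 13.8. Genes of the muscle fibre summed to 76406 to 88032 CPM in flox reloading and 88537 to 108891 in mKO reloading. All 3 proliferation genes rose in both genotypes and were lower in mKO reloading. The part of these cell types in the marker differences was not tested.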

How the data were processed

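Polyadenylated RNA from gastrocnemius was sequenced in 18 libraries with a stranded kit, per the labels' protocols. The authors deposited unscaled read counts per gene. The header of the table names featureCounts 1.6.4, Ensembl release 94 and no option for strand or read pairs, per the file headers, while STAR 2.7.3a, featureCounts 2.0.3 and GRCm38.p6 come from the submitters' processing notes. The 4 deposited DESeq2 tables were not used, and no column of values was left without a sample.

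Counts were scaled by TMM factors (0.952 to 1.09) and tested in R 4.3.3 with edgeR 4.0.16, a quasi-likelihood F test on 1 model of 6 group means with 12 residual degrees of freedom and the default low-count filter. The 12 contrasts and a Benjamini-Hochberg threshold of 0.05 over 17833 genes apply throughout. The test was also run on simulated data with 1 dispersion for all genes and changes only in genes with a mean of 1 CPM or more. That setting does not cover the members at lower levels. SE is the size of the log2 fold change divided by the root of F. CPM per kb divides by exon length. The members, role groups and other gene lists were chosen with earlier results of these data known. Values in every library are given for the 2 most abundant members and the 2 largest flox reloading changes of each role group, for members called against their group, and for members called between genotypes or in an interaction. The results were also computed with RLE size factors, with total counts, without a filter, with a filter of 1 CPM in 3 libraries, a replicate block, the compared groups alone and DESeq2 1.42.0, and with each library left out. No pair of libraries within a group agreed within sampling noise.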

Additional observations from a re-analysis of the deposited data

Results flagged for a closer look

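The rise from control to reloading differed between genotypes by the interaction test for 3 of the 41 members. The difference, mKO minus flox, was -1.01 ± 0.20 (SE, adjusted p = 0.0345) for Mrc1, -1.59 ± 0.30 (SE, adjusted p = 0.0342) for Ctss and -1.18 ± 0.24 (SE, adjusted p = 0.0377) for Laptm5, from edgeR with 3 libraries per group. None of the 3 calls held in all fits that left out 1 library, where the adjusted p reached 0.133 for Mrc1, 0.126 for Ctss and 0.144 for Laptm5, while the differences ranged from -1.14 to -0.86, from -1.80 to -1.38 and from -1.36 to -0.99.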

How the results depend on the processing

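No member called in any comparison changed direction under any alternative. In flox reloading against unloading 30 of the 34 called members, and against control 24 of 34, were called in every fit; leaving out 1 library gave 30 to 34 and 24 to 34. The 28 members lower in mKO reloading became 11 to 33 when 1 library was left out, and 11 were called in every fit. For flox unloading against control the range was 1 to 2. In mKO unloading against control 2 became 8 with no low-count filter, 5 with DESeq2 and 1 to 3 with 1 library left out. In mKO reloading against unloading 5 became 9 with no filter and 3 to 7 with 1 library left out, and against control 1 became 4 with no filter and 0 with only the compared groups. The interaction for reloading against unloading had 18 with no filter, 6 with DESeq2 and 0 to 1 with 1 library left out. That for reloading against control, 3, became 15 with total counts, 26 with no filter, 9 with the stricter filter, 22 with DESeq2, 9 with only the compared groups and 0 to 19 with 1 library left out. The cause of these differences was not tested. With total counts the median over all tested genes moved by 0.11 in flox reloading against unloading, 0.15 against control and -0.13 between reloaded genotypes. With the replicate block that interaction called 6 members, and no other count of calls moved by over 1.5 times. Deviations of libraries with the same replicate number correlated weakly across groups (median 0.024 over 45 pairs, 2 above 0.1). Between libraries with different numbers the median was -0.004 over 90 pairs, 4 above 0.1. Of 18 libraries 9 correlated best with a library of their own number. The numbers were not used as pairs in the main model. With 3 libraries per group and counts down to 2, changes in Trem2, Clec4n and Aif1 are the least precise.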
